A study of Mus musculus with 6 samples.

Results

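Runx1, Tal1 and Fli1 encode DNA-binding factors of the blood stem and progenitor programme, and polymerase engaged on the 3 genes was measured here by PRO-seq. They were taken by symbol from the deposited table. This gave 5 transcript rows (2 of Runx1, 2 of Tal1 and 1 of Fli1) of 3022 rows in all, or 3 of 2744 genes. RUNX1 carries a Runt domain and binds DNA with the partner CBFB. TAL1, also called SCL, is a basic helix-loop-helix protein that binds E-boxes with E proteins such as TCF3, and sits with LMO2, LDB1 and GATA factors in one complex. FLI1 is an ETS factor that reads GGAA cores. In blood stem cells these proteins are known to occupy many regulatory elements together with GATA2, LYL1, LMO2 and ERG, a group often called the heptad. They are also known for later lineage roles, RUNX1 and FLI1 in megakaryocytes and TAL1 in red cell formation.

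PRO-seq labels the 3′ ends of nascent RNA that transcribing polymerases extend in isolated nuclei, so its reads count engaged polymerase and not stored mRNA. The cells were cKIT+ bone marrow progenitors from female C57/BL6 mice that were Mllt3 flox/flox and Rosa26Cre+. In both groups they were transduced, sorted and kept for 8 days in methylcellulose with blood cytokines and 200 nM 4-hydroxytamoxifen, which activates deletion of the endogenous Mllt3. One group received wild-type MLLT3 (WT, 3 libraries) and the other MLLT3 with the substitutions K63E and K67E (double mutant, DM, 3 libraries). MLLT3 is a chromatin reader whose YEATS domain binds acylated histone lysines, and the series title adds the 7SK RNA as a ligand. The comparison asks how the mutant protein changes nascent transcription relative to the wild-type protein. The promoter that drives the added MLLT3 and the extent of the deletion are not given in the sources used here. No library without added MLLT3 was analysed here, all libraries bear batch 1 in the labels, and the labels do not say whether replicates were separate cultures or mice. The p-values below therefore measure the spread between these libraries.

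Library totals ran from 15112853 reads in WT replicate 2 to 22981603 in WT replicate 1. Mllt3 itself, read over the whole gene, had 1853, 1167 and 2181 body reads for WT replicates 1 to 3 against 1335, 1273 and 1176 for the DM ones, with a log2 change of -0.49 (SE 0.11, edgeR adjusted p 0.00358). These reads do not tell the added cDNA from the endogenous gene. Kit, which encodes the surface receptor used to define the cells, was read at 15.5 ± 3.18 body RPKM for WT against 8.07 ± 0.105 for DM (SD, n = 3 each). RPKM scales a read count by the length of its window and by the library total, so it compares levels per length. The table holds rows with a body adjusted p under 0.05; by the authors' deposited table the highest value is 0.0498. The presence of Runx1, Tal1 and Fli1 in it thus already states that their bodies differed, and the body values below are a description. A row's own head reads did not select it. For Runx1 and Tal1, however, the head of the downstream row lies inside the body of the upstream row. Its reads were thus part of the body counts on which the upstream row was selected.

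Each row has a head window of 330 bp that begins 30 bp upstream of the transcript's start, and a body that is the rest of the transcript, introns included. Coordinates are those of the table; the submitters' processing notes name mm10. Runx1-202 (ENSMUST00000113956.9 of ENSMUSG00000022952.17) lies on chromosome 16 from 92601466 to 92697328, minus strand. Runx1-203 (ENSMUST00000168195.7) shares its 3′ end and starts at 92696125, inside the body of Runx1-202. Tal1-201 (ENSMUST00000030489.8 of ENSMUSG00000028717.12) lies on chromosome 4 from 115056426 to 115071755, plus strand. Tal1-202 (ENSMUST00000136946.7) starts downstream at 115057438 and shares the 3′ end. Fli1-202 (ENSMUST00000183767.1 of ENSMUSG00000016087.13) lies on chromosome 9 from 32422204 to 32542861, minus strand. In the GRCm38.p6 RefSeq gene table, Runx1 reaches from 92601466 to 92826074, so a start far upstream of both Runx1 rows is annotated there; transcripts from it were not analysed here. The non-coding gene Gm33786 (115057622 to 115059310) overlaps both Tal1 rows and reaches into the Tal1-202 head window (115057408 to 115057738). The snRNA gene Gm22060 (32446822 to 32446928) lies inside Fli1. Whether counting used strand is not given in the sources used here, so reads of overlapping genes cannot be told apart.

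The stretch just upstream of a start is where the factors of a promoter bind, and it is shown for the rows whose start has a RefSeq promoter entry within 1 base, Runx1-202 and Tal1-201. Each is 250 bases long, 5′ to 3′ on the gene's strand and ends at the base before the RefSeq start (GRCm38.p6). Capitals mark matches on either strand to short core motifs of the factor families named above. They were TGTGGT for RUNX, CAGNTG for E-boxes of TAL1 type, GATAA for GATA factors and CGGAA for ETS factors.
Runx1-202, chr16:92697330-92697579, minus strand: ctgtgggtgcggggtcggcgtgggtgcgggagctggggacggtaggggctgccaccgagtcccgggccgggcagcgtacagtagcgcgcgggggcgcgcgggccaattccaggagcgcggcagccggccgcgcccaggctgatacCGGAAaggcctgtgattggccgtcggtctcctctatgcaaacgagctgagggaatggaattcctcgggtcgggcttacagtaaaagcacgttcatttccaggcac
Tal1-201, chr4:115056176-115056425, plus strand: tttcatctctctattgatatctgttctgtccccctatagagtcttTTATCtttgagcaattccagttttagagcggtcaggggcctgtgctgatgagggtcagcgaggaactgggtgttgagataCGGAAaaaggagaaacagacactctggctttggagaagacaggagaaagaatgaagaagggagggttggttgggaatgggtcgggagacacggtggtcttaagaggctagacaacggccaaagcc

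The ETS motif CGGAA was found in both windows, from 105 to 101 bases upstream of the start in Runx1-202 and from 125 to 121 bases upstream in Tal1-201. Of 32817 upstream windows of the same length in the RefSeq table, 25.2% held CGGAA. The shorter core GGAA also occurs elsewhere in both windows, where it was neither marked nor counted. The Tal1-201 window also held a GATA core, from 205 to 201 bases upstream, which 22.6% of all windows hold. TGTGGT and CAGNTG, held by 14.0% and 44.8% of all windows, are not among the letters of either window. The windows differ in base composition, with 67.6% G and C in Runx1-202 and 48.8% in Tal1-201, against a median of 52.4%.

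Polymerase in the bodies of all 3 genes was lower in DM than in WT, by most in Tal1. The mean body level in DM was 61.7% of WT for Tal1-201, 77.5% for Fli1-202 and 82.4% for Runx1-202. In all 5 rows the 3 DM libraries lay below the 3 WT libraries, a pattern that 38.3% of all rows in the table show for body reads. All 5 rows also passed the edgeR test in this direction, as 42.1% of the rows tested did. Because the rows were selected on this contrast, nothing is read from these counts. The adjustment for multiple tests also runs over these selected rows alone. Of the 2999 bodies tested, 2982 had an unadjusted edgeR p under 0.05, and 2982 passed after adjustment. The adjusted p-values of bodies are thus not false discovery rates over all transcripts.

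Tal1 had the highest body level of the 3 genes and the largest difference. Tal1-201 had 17.8, 19.9 and 25.7 body RPKM for WT replicates 1 to 3 against 12.9, 13.5 and 12.7 for the DM ones, from 3821 to 8820 reads per library. The DM libraries lay close together and all below the lowest WT library, while the WT libraries spread widely, with replicate 3 on top. Means came to 21.1 ± 4.07 for WT against 13.0 ± 0.420 for DM (SD, n = 3 each). The log2 change was -0.70 (SE 0.14, 95% interval -1.01 to -0.38, edgeR adjusted p 0.00211). Tal1-202 shares 85.5% ± 0.528 of the Tal1-201 body reads for WT and 84.4% ± 1.39 for DM (SD, n = 3 each), so it is not a separate measurement of the body. Its log2 change was -0.72 (SE 0.14, edgeR adjusted p 0.00186). By mean WT body RPKM, 55 of the 3022 rows lay above Tal1-201.

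Fli1 was read at the lowest body level per length. Fli1-202 had 4.28, 4.57 and 5.52 body RPKM for WT replicates 1 to 3 against 3.66, 3.83 and 3.64 for the DM ones, from 8316 to 15187 reads per library. The groups did not overlap, and the gap between the lowest WT and the highest DM library was narrow. Means came to 4.79 ± 0.645 for WT against 3.71 ± 0.102 for DM (SD, n = 3 each), with a log2 change of -0.37 (SE 0.12, 95% interval -0.63 to -0.11, edgeR adjusted p 0.0145). The call was lost without DM replicate 1 (edgeR adjusted p 0.0554) and without DM replicate 3 (0.0588).

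Runx1 had the most body reads of the 3 genes and the smallest difference. Runx1-202 had 10.5, 10.1 and 12.4 body RPKM for WT replicates 1 to 3 against 9.44, 8.94 and 8.84 for the DM ones, from 14626 to 27187 reads per library. As in Tal1 and Fli1, WT replicate 3 was the highest library and the DM libraries were close together. Means came to 11.02 ± 1.24 for WT against 9.07 ± 0.324 for DM (SD, n = 3 each). The log2 change was -0.28 (SE 0.11, 95% interval -0.53 to -0.03, edgeR adjusted p 0.0307). Runx1-203, whose body holds 93.5% ± 0.563 of the same reads for WT and 92.4% ± 0.375 for DM (SD, n = 3 each), changed by -0.30 (SE 0.11, edgeR adjusted p 0.0252). Without DM replicate 1, 2 or 3 the call of Runx1-202 was lost (edgeR adjusted p 0.0653, 0.0928 and 0.109), as was that of Runx1-203 (0.0572, 0.0791 and 0.0962). Without WT replicate 3 the log2 change was -0.18 (edgeR adjusted p 0.0416).

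**Figure D1:**
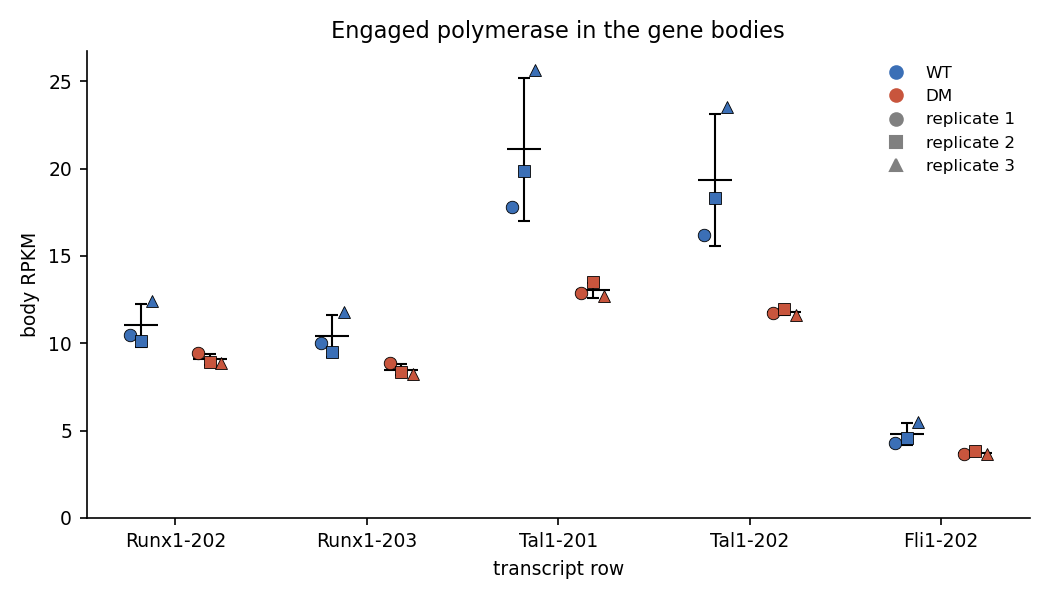
Body RPKM (vertical axis, from 0) of the 5 transcript rows of Runx1, Tal1 and Fli1 in the 3 WT and 3 DM libraries; points are libraries, with symbols for replicate numbers, and bars are the mean and SD. DM libraries lie below WT libraries in each row, from 12.7 to 13.5 against 17.8 to 25.7 RPKM in Tal1-201.

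The size of these changes depended on the scaling of libraries, while their direction was the same under library totals, TMM factors, DESeq2's factors and the authors' factors; scaling on fly (dm3) reads was not analysed here. The values above are scaled by library totals, under which the median log2 change of all 2999 body rows tested was 0.40, so all 5 rows lay further below that median than below 0. With TMM factors computed from the rows of the table the median was 0.18, and Tal1-201, Fli1-202 and Runx1-202 changed by -0.91, -0.58 and -0.49 (edgeR adjusted p 5.69e-04, 0.00120 and 0.00110). Over the whole table, 1262 bodies were called lower and 1720 higher with library totals, against 1278 and 963 with DESeq2 and its own size factors. Those factors, like the TMM factors, were computed from the selected rows of the table. With them the median was 0.06, and Tal1-201, Fli1-202 and Runx1-202 changed by -1.03, -0.70 and -0.61 (DESeq2 adjusted p 6.67e-14, 3.73e-11 and 4.77e-13). With size factors solved from the authors' mean values the changes were -0.72, -0.39 and -0.30. By the authors' deposited table, log2 fold changes came to -0.72 for Tal1-201, -0.39 for Fli1-202 and -0.30 for Runx1-202, with adjusted p-values of 2.71e-06, 0.00268 and 0.00575. The authors' deposited table also ranks the body log2 ratio over more rows than were analysed here, and places Tal1-201 at percentile 3.74, Fli1-202 at 12.8 and Runx1-202 at 17.6 from the lowest.

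Whether Tal1 fell by more than the others was tested on the ratio of body levels within each library, which needs no scaling. The log2 ratio of Tal1-201 to Runx1-202 was 0.76, 0.97 and 1.04 for WT replicates 1 to 3 against 0.44, 0.60 and 0.53 for the DM ones. All DM libraries were lower, with a mean difference of -0.40. The log2 ratio of Tal1-201 to Fli1-202 was 2.06, 2.12 and 2.22 for WT against 1.81, 1.82 and 1.80 for DM, a mean difference of -0.32, again without overlap. For Fli1-202 over Runx1-202 the groups overlapped and the difference was -0.09, near the SD of 0.078 in WT. The two-sided exact permutation p was 0.1 for both Tal1 ratios and 0.3 for the third, or 0.15, 0.15 and 0.3 after Benjamini-Hochberg adjustment over the 3 pairs. With 3 libraries against 3 the smallest possible p is 0.1, so no pair could pass 0.05. The body reads in these ratios are those on which the rows were selected. With head reads in their place, both Tal1 differences were above 0 and the groups overlapped. They were 0.034 over Runx1-202 and 0.64 over Fli1-202 (exact permutation p 0.4 for the latter). The Tal1-201 head held 23 to 62 reads per library.

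Head windows hold polymerase at and just past the start. At Tal1-202 the head was lower in DM, at Fli1-202 it was lower on average with overlapping libraries, and at both Runx1 starts and Tal1-201 no difference was detectable. The 95% intervals of the 5 heads overlap. Across genes, log2 head ratios within each library were compared for Tal1-201, Runx1-202 and Fli1-202, and the groups overlapped in each pair. The mean difference was -0.61 for Fli1-202 over Runx1-202 and 0.64 for Tal1-201 over Fli1-202 (exact permutation p 0.3 and 0.4, smallest possible 0.1). It was 0.034 for Tal1-201 over Runx1-202. The heads at the downstream Tal1 and Runx1 starts were not compared across genes. Of the 5 rows, Tal1-202 passed the edgeR test for heads, where 10.9% of the 2846 rows tested passed with a lower level in DM. Tal1-202 was also the row whose DM libraries all lay below the WT libraries, as 23.3% of all rows did for head reads.

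The Tal1-202 head had 43.1, 46.1 and 64.0 RPKM for WT replicates 1 to 3 against 24.8, 35.2 and 27.8 for the DM ones, from 183 to 483 reads per library. Part of this window is shared with Gm33786, whose reads cannot be told apart here. Means came to 51.1 ± 11.3 for WT against 29.3 ± 5.37 for DM (SD, n = 3 each). The log2 change was -0.80 (SE 0.27, 95% interval -1.37 to -0.23, edgeR adjusted p 0.0446). This call was close to the threshold. It was lost with the authors' size factors (edgeR adjusted p 0.0608), without WT replicate 3 (0.172) and without DM replicate 1, 2 or 3 (0.217, 0.0868 and 0.198), while the log2 change stayed between -0.96 and -0.61 in fits that left out a library.

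The upstream Tal1 start carried far fewer reads. The Tal1-201 head had 48, 23 and 62 reads for WT replicates 1 to 3 against 46, 41 and 39 for the DM ones, or 6.38 ± 1.80 and 6.05 ± 0.123 RPKM (SD, n = 3 each). The DM libraries lay within the range of the WT libraries. The log2 change was -0.09 (SE 0.31, 95% interval -0.74 to 0.56, edgeR adjusted p 0.859), so at this depth a change of the size seen in the Tal1 body lies inside the interval.

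The Fli1-202 head was also thinly covered, with 48, 65 and 150 reads for WT against 55, 59 and 41 for DM. WT replicate 1 lay inside the DM range and WT replicate 3 far above it, at 6.33 and 19.9 RPKM. The log2 change was -0.81 (SE 0.36, 95% interval -1.58 to -0.04, edgeR adjusted p 0.115). Without WT replicate 1 it was -1.15 and passed (edgeR adjusted p 0.00484); without WT replicate 3 it was -0.35 (edgeR adjusted p 0.531).

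The Runx1 heads were among the stronger of the table, with 95.7% of rows below Runx1-202 in mean WT head RPKM. Runx1-202 had 92.4, 113 and 134 head RPKM for WT replicates 1 to 3 against 106, 102 and 112 for the DM ones. All DM libraries lay inside the WT range, and the log2 change was -0.09 (SE 0.23, 95% interval -0.58 to 0.41, edgeR adjusted p 0.826). Runx1-203 had 62.0, 43.3 and 73.6 for WT against 71.5, 60.4 and 63.5 for DM, a log2 change of 0.13 (SE 0.26, 95% interval -0.43 to 0.68, edgeR adjusted p 0.771). The lowest library at this start was WT replicate 2, which also had the lowest library total. In the authors' deposited table the head log2 ratio of pooled libraries stood at percentile 57.1 for Runx1-202 and 75.6 for Runx1-203, against 7.05 for Tal1-202, 52.6 for Tal1-201 and 7.38 for Fli1-202.

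**Figure D2:**
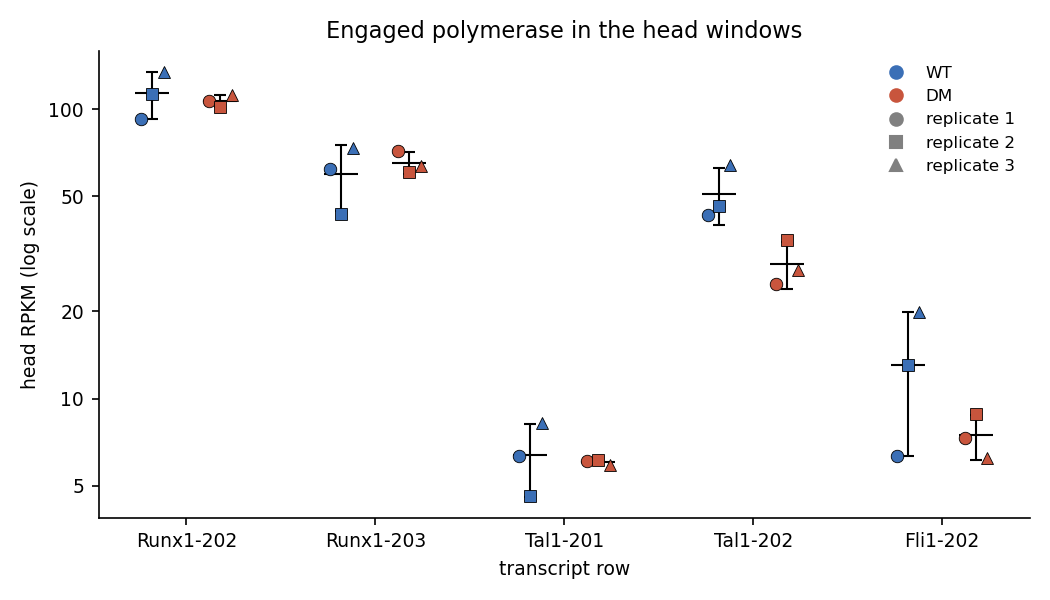
Head RPKM (vertical axis, log scale) of the 5 transcript rows in the 3 WT and 3 DM libraries; points are libraries, with symbols for replicate numbers, and bars are the mean and SD. The groups are apart at Tal1-202, from 24.8 to 35.2 RPKM in DM against 43.1 to 64.0 in WT, and overlap at the other 4 starts.

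The head to body ratio sets reads at the start against reads over the rest of the gene; its change was tested as a region by group interaction. None of the 5 rows passed the edgeR test, under which 0.0703% of the 2844 rows tested passed (2 rows, beside 433 with an unadjusted p under 0.05). DESeq2 called none of the 5 rows either, and 41 rows of the table. Tal1-201 and Fli1-202 had the outermost values, at 0.62 (SE 0.28, 95% interval 0.01 to 1.22, edgeR adjusted p 0.327) and -0.35 (SE 0.33, -1.07 to 0.37, edgeR adjusted p 0.613). Tal1-201 had an unadjusted p of 0.0462. Runx1-202 stood at 0.20 (SE 0.22, edgeR adjusted p 0.667), Runx1-203 at 0.45 (SE 0.23, edgeR adjusted p 0.366) and Tal1-202 at -0.10 (SE 0.24, edgeR adjusted p 0.863), which turned to 0.21 with separate TMM factors for heads and bodies (0.586). The same factors gave 0.89 for Tal1-201, 0.52 for Runx1-202, 0.74 for Runx1-203 and -0.05 for Fli1-202 (edgeR adjusted p 0.106, 0.099, 0.127 and 0.923). The Fli1-202 ratio was -0.69 without WT replicate 1 and -0.05 without WT replicate 3 (edgeR adjusted p 0.119 and 0.959), and the Runx1-202 ratio was 0.10 without WT replicate 1 (0.789). The median over all rows tested was -0.25, and with separate TMM factors for heads and bodies it was 0.06.

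By library, the ratio of head to body read density at Runx1-202 was 8.81, 11.2 and 10.8 for WT replicates 1 to 3 against 11.3, 11.4 and 12.6 for the DM ones. At Runx1-203 it was 6.20, 4.55 and 6.25 for WT against 8.07, 7.21 and 7.72 for DM. At Tal1-201, where the head was less dense than the body, it was 0.356, 0.232 and 0.320 for WT against 0.475, 0.455 and 0.465 for DM. In these 3 rows every DM library lay above every WT library, a pattern shown by 4.14% of all rows and by 7.05% of the 1262 rows called lower in the body. The rows are not independent, since both Runx1 rows share their body. The body reads in each ratio are those on which the rows were selected, so the pattern is given as a description. At Tal1-201 the ratio rests on 23 to 62 head reads per library. The two-sided exact permutation p was 0.1 in each, the smallest possible, and 0.167 adjusted over the 5 rows. At Tal1-202 and Fli1-202 the groups overlapped, with mean ratios of 2.63 ± 0.102 and 2.64 ± 1.08 in WT and 2.48 ± 0.419 and 2.00 ± 0.302 in DM (SD, n = 3 each; exact permutation p 0.6 and 0.4).

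**Figure D3:**
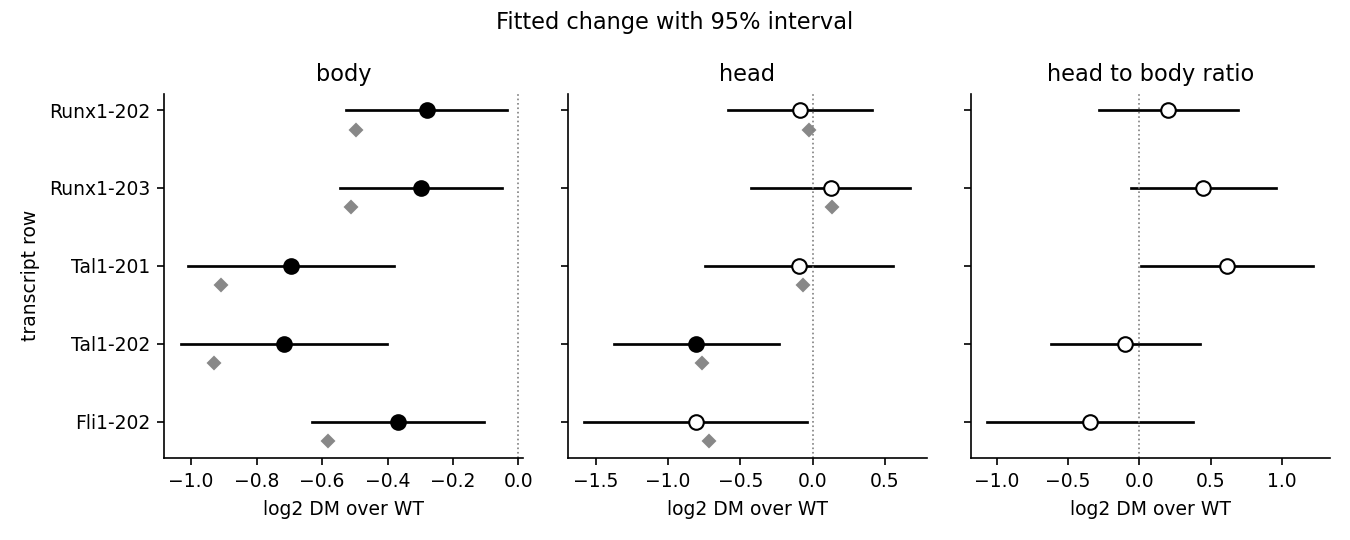
Log2 change in DM over WT (horizontal axes) of body counts, head counts and the head to body ratio for the 5 transcript rows, scaled by library totals; circles are edgeR estimates, filled where the adjusted p is under 0.05, lines are 95% intervals, and grey diamonds are the estimates with TMM factors. All 5 body estimates lie below 0, from -0.72 to -0.28, while head estimates run from -0.81 to 0.13.

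Because the paired rows of Runx1 and of Tal1 share a 3′ end, the reads between their starts could be obtained by subtracting the body and head of the downstream row from the body of the upstream row. This measure was added after the data had been seen, and it assumes that a read is counted in 1 window only. Between the Tal1 starts (chromosome 4, 115056727 to 115057407, 681 bp) there were 599, 402 and 788 reads for WT replicates 1 to 3 against 472, 472 and 380 for the DM ones. The density was 42.6 ± 6.89 RPKM for WT against 30.9 ± 3.21 for DM (SD, n = 3 each), without overlap (two-sided exact permutation p 0.1). The difference in means was -11.8 RPKM, and -7.82 without WT replicate 3. This stretch thus held many more reads per length than the Tal1-201 head upstream of it. Along Tal1, DM levels were 94.8% of WT in the upstream head, 72.4% between the starts, 57.3% in the downstream head and 60.9% in the remaining body.

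Between the Runx1 starts (chromosome 16, 92696156 to 92697027, 872 bp) there were 911, 824 and 1193 reads for WT against 980, 889 and 943 for DM. The density was 55.9 ± 9.17 RPKM for WT against 51.2 ± 2.56 for DM (SD, n = 3 each), with overlapping libraries (exact permutation p 0.4). The difference in means, -4.68 RPKM, was -9.91 without WT replicate 1, -1.38 without WT replicate 2 and -2.74 without WT replicate 3. Along Runx1, DM levels were 94.1% of WT in the upstream head, 91.6% between the starts, 109% in the downstream head and 81.4% in the remaining body. The remaining body was the stretch of Runx1 in which the groups did not overlap. Adjusted over the 8 stretches of both genes, the exact permutation p was 0.2 for each stretch without overlap.

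**Figure D4:**
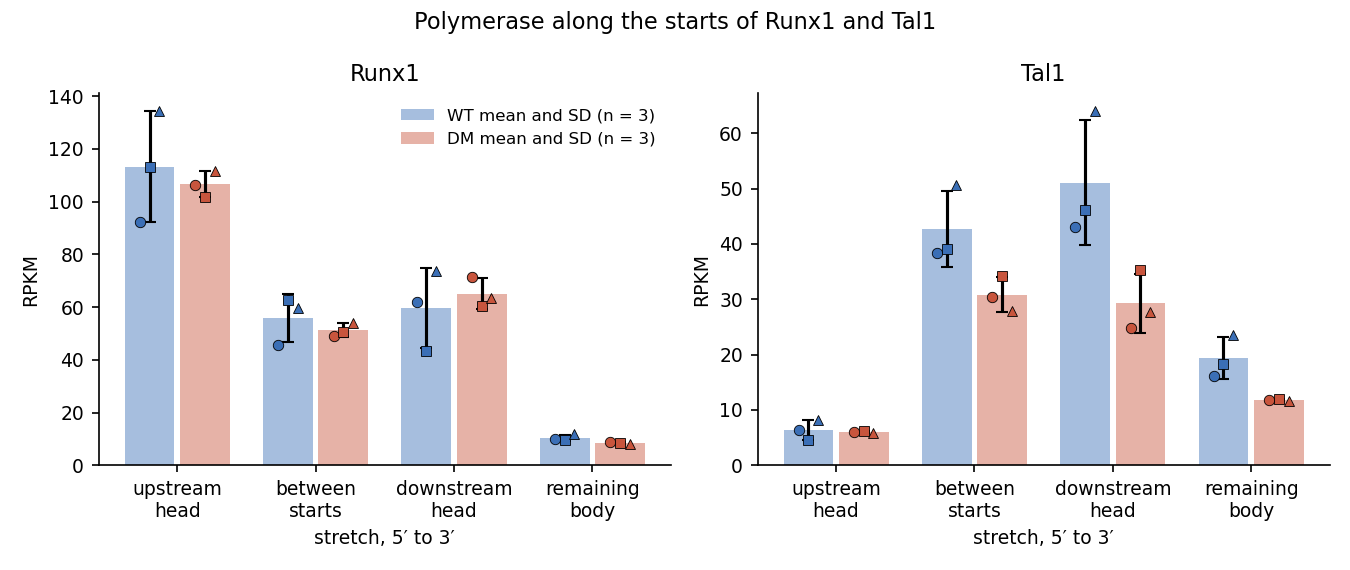
RPKM (vertical axes, from 0) in 4 consecutive stretches of Runx1 and Tal1, from the head at the upstream start to the body past the downstream start; bars are means with SD (n = 3), points are libraries. In Tal1 the groups are apart from the stretch between the starts onward, at 30.9 against 42.6 RPKM there; in Runx1 they are apart in the remaining body, at 8.49 against 10.4 RPKM.

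Head reads at the paired starts were compared as the share of a gene's head reads in the downstream window. This share leaves out the stretch between the starts. In Tal1 the downstream head held 51.1 RPKM against 42.6 between the starts in WT, and 29.3 against 30.9 in DM. In Runx1 the values were 59.6 against 55.9 in WT and 65.2 against 51.2 in DM. For Tal1, 87.2%, 90.9% and 88.6% of head reads lay in Tal1-202 for WT replicates 1 to 3 against 80.3%, 85.1% and 82.4% for the DM ones. The share was lower in every DM library, with a mean difference of -6.30 percentage points. For Runx1, 40.1%, 27.7% and 35.4% of head reads lay in Runx1-203 for WT against 40.2%, 37.2% and 36.3% for DM, and the groups overlapped. The Runx1 difference of 3.48 percentage points was 6.34 without WT replicate 1 and 0.119 without WT replicate 2. The two-sided exact permutation p was 0.1 for Tal1 and 0.4 for Runx1, or 0.2 and 0.4 adjusted over both genes. A downstream head also receives polymerase that began at the upstream start, so these shares are of reads and not of initiation events.

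Among the partners, relatives and targets of the 3 factors, most genes held in the table were lower in DM, and genes that were higher occurred in the RUNX, TAL1 complex, ETS and myeloid lists. Genes missing from the table were not analysed here, and genes held were selected as changed, so the counts show direction alone. Over all rows tested, 42.1% of bodies were called lower and 57.4% higher, with a median log2 change of 0.40; the counts of this and the next paragraphs, markers included, stand beside those shares. Listed genes were tested with library totals, and the other factors move them by about the shift of the median given above. Of the other heptad members, Gata2 and Lyl1 were held (2 of 4), and both were lower. Gata2, a zinc finger factor of stem, mast and progenitor cells, had a level of 102 ± 13.1 body RPKM for WT against 56.6 ± 2.51 for DM (SD, n = 3 each), a log2 change of -0.85 (SE 0.12, edgeR adjusted p 3.21e-04). Its head changed by -1.18 (edgeR adjusted p 0.0116). Lyl1, the closest relative of Tal1 by function, changed by -0.53 (SE 0.19, edgeR adjusted p 0.0233) in the body, and its head by -0.09 (edgeR adjusted p 0.855).

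In the RUNX and core binding factor list, 3 of 6 genes were held, 2 lower and 1 higher. Runx3 fell from 7.13 ± 0.630 to 4.47 ± 0.0251 body RPKM (SD, n = 3 each; log2 change -0.67, edgeR adjusted p 5.21e-04). Runx2, read at a much lower level per length, rose from 0.379 ± 0.0324 to 0.630 ± 0.0298 (log2 change 0.73, edgeR adjusted p 3.73e-04). Cbfa2t3, a corepressor found in TAL1 complexes, changed by -0.76 in the body and -1.17 in the head (edgeR adjusted p 5.60e-04 and 0.0182).

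Of 14 genes of the TAL1 complex list, 9 were held, 7 lower and 2 higher. Gata2, Lyl1 and Cbfa2t3, counted in the lists above, are among the 7 lower. Gata1, the erythroid partner, changed by -0.93 (SE 0.23, edgeR adjusted p 0.00520) and Ssbp3, whose product binds LDB1, by -0.59 (SE 0.12, edgeR adjusted p 0.00211). Both genes that rose are named after their values were seen. They had low levels per length, Tal2 at 0.108 ± 0.0383 and 0.262 ± 0.0108 RPKM and Tcf4 at 0.117 ± 0.0277 and 0.169 ± 0.0113 (WT and DM, SD, n = 3 each). Of 16 other ETS family genes 3 were held: Elk3 rose by 0.60 (edgeR adjusted p 0.00350), whereas Elk4 and Etv5 changed by -0.25 and -0.44 (edgeR adjusted p 0.0253 and 0.0337).

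Genes known as targets of these factors were held in small numbers. Both megakaryocyte genes held (of 14) were lower, the integrin gene Itga2b by -0.83 and Zfpm1, which encodes a GATA cofactor, by -0.72 (edgeR adjusted p 4.47e-04 and 0.0192). All 3 of 10 erythroid genes held were lower, namely Slc4a1, which encodes the band 3 anion exchanger (0.865 ± 0.163 body RPKM for WT against 0.432 ± 0.0619 for DM, SD, n = 3 each, edgeR adjusted p 0.00208), Gfi1b (log2 change -0.72, edgeR adjusted p 0.0204) and Tal1 itself. Of 8 myeloid genes linked to RUNX1, Csf1r, the receptor for macrophage colony-stimulating factor, rose by 1.27 and Gfi1, which encodes a transcriptional repressor needed for neutrophil development, changed by -0.75 (edgeR adjusted p 6.72e-04 and 0.0131).

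**Figure D5:**
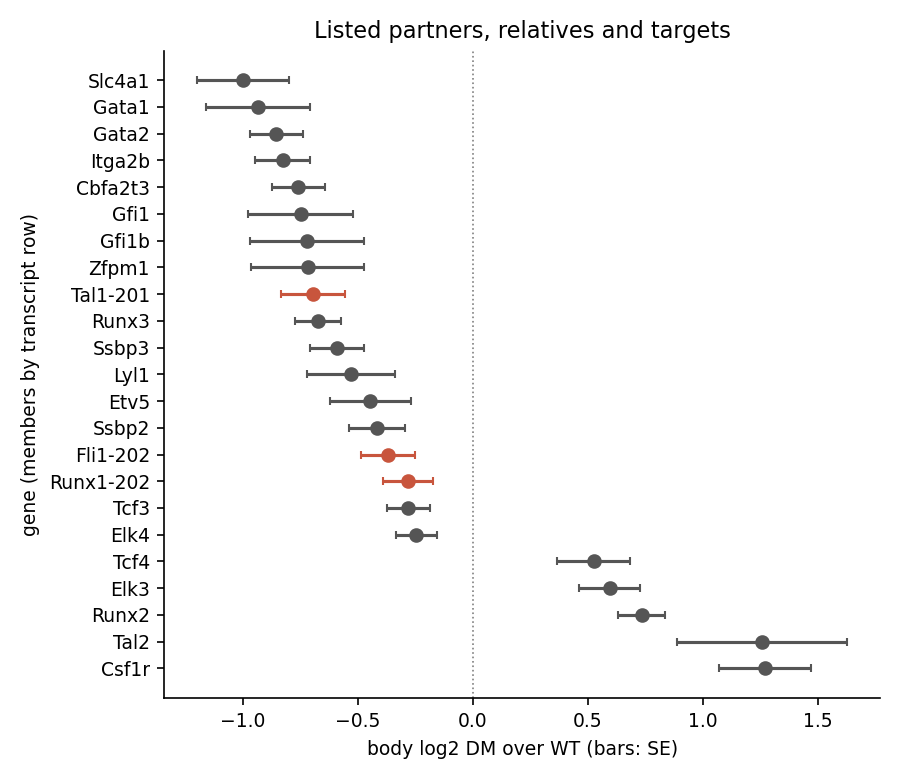
Body log2 change in DM over WT (horizontal axis) of Runx1-202, Tal1-201 and Fli1-202 (red) and of the listed partner, family and target genes held in the table (grey), with SE bars from edgeR on library totals. Slc4a1 has the lowest and Csf1r, at 1.27, the highest value, and 5 of the genes lie above 0.

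Markers of other blood cells moved between the groups too. Csf1r, Slc4a1 and Itga2b are among these markers and were already counted in the target lists above. Of the stem and progenitor list 5 of 8 genes were held, 3 lower and 1 higher past the threshold, and their summed body level was 1334 to 1987 RPM (reads scaled to the library total alone) in WT and 825 to 849 in DM. Kit weighs most in this sum, with 13077 to 35308 body reads per library against 2951 to 8839 for Meis1, the next. The gene that was higher, Procr, had 10 to 52 body reads and a log2 change of 1.26 (edgeR adjusted p 0.00927). Monocyte and macrophage genes (5 of 8 held, all higher) summed to 219 to 295 in WT and 598 to 664 in DM. Mast and basophil genes (4 of 7 held, all lower) summed to 1283 to 2362 and 1006 to 1087. The neutrophil gene held (1 of 8, S100a8) and the lymphoid gene held (1 of 6, Il7r) were higher, at 11.8 to 25.0 against 44.1 to 58.7 and 18.8 to 28.5 against 56.0 to 71.5. Erythroid (2 of 8 held) and megakaryocyte genes (1 of 6 held) were lower, at 30.5 to 50.3 against 17.1 to 21.9 and 132 to 166 against 76.9 to 89.8, and none of 4 endothelial genes was held. The part of cell composition in the lower Runx1, Tal1 and Fli1 bodies was not tested. In these bulk libraries, fewer cells of a type and less transcription per cell cannot be told apart.

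The genes whose body profile over the 6 libraries lay closest to each member were different for each. Likeness was the Euclidean distance between log2 RPM profiles centred on their means, over 2640 genes with a mean of at least 50 body reads. Nearest to Runx1 were Ero1l, Tex2, Rin3, Sufu and Anxa6, at distances of 0.0639 to 0.107. Nearest to Tal1 were Alox5, Pear1, Cst7, Fgd2 and Gnb4, at 0.0969 to 0.123, and nearest to Fli1 were Mob3c, Pdp2, Arap3, Slc2a6 and Tbc1d9b, at 0.0743 to 0.117. Among these 2640 genes, Fli1 was number 41 in likeness to Runx1 (distance 0.183) and Tal1 was number 496 (distance 0.547). From Tal1, Fli1 was number 213 (distance 0.407). The profiles were centred and not scaled, so the distance also grows with a difference in the size of change. The Pearson correlation of the same profiles was 0.993 for Tal1 and Fli1, 0.944 for Tal1 and Runx1 and 0.949 for Runx1 and Fli1. Such distances rest on 6 libraries that share their totals, and they are given as a description.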

How the data were processed

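Raw read counts for a head and a body window of each transcript, and a total for each library, were deposited by the authors. The RPKM values deposited by the authors were recomputed from these without a difference above rounding. The submitters' processing notes list cutadapt, Trimmomatic, Bowtie 1.1.2, MACS2, bedtools 2.28 and the builds mm10 and dm3, without roles; a use of dm3 for scaling was not analysed here. The log2 fold changes, p-values and percentile scores of the authors' deposited table belong to their own comparison. The authors' size factors were solved from the mean signal they deposited.

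Body counts, head counts and the head to body ratio (region by group, library as a block) were tested over all transcript rows by the quasi-likelihood method of edgeR (version 4.0.16 under R 4.3.3, with limma 3.58.1; DESeq2 1.42.0 served as an alternative) after filterByExpr (minimum count 10, minimum total 15), with library totals as library sizes and Benjamini-Hochberg adjustment; the threshold was 0.05. Library totals were used because factors from rows selected on this contrast are not those of all transcripts. Values of single libraries were compared by exact permutation tests. The fits were tested on simulated data. From each list up to 4 genes were named by smallest body adjusted p, with exceptions stated, and the 5 closest profiles for each member. Members and lists were chosen with earlier results of these data known.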

Additional observations from a re-analysis of the deposited data

How the results depend on the processing

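All 5 bodies stayed lower in DM in every fit, but the table was selected on that contrast. The replicate numbers did not deviate together (r -0.077, -0.18 and 0.35 over body rows), so they do not pair the libraries. With the replicate block the Runx1-202 body changed by -0.27 (edgeR adjusted p 0.0883) and the Runx1-203 body by -0.29 (0.0696), heads called lower rose from 311 to 470 and ratios called from 2 to 12. Leaving out 1 library gave -0.34 to -0.18 for the Runx1-202 body, -0.36 to -0.20 for Runx1-203 and -0.44 to -0.25 for Fli1-202, with 807 to 1247 bodies called lower (1262 with all libraries). The same fits gave -0.21 to 0.054 for the Runx1-202 head, -0.057 to 0.31 for Runx1-203, -0.26 to 0.13 for Tal1-201, -0.96 to -0.61 for Tal1-202 and -1.15 to -0.35 for Fli1-202, and -0.23 to 0.0099 for the Tal1-202 ratio, which turned without DM replicate 1. The head signs turned without WT replicate 3 (Runx1-202 and Tal1-201) or WT replicate 2 (Runx1-203). Heads called ran from 4 to 664 lower and 14 to 647 higher, both lowest without DM replicate 1, and ratios called from 0 to 90. With DESeq2, 963 bodies were called higher (1720 with edgeR), 524 heads lower and 519 higher, and 41 ratios. With TMM factors, 543 heads were called lower and 566 higher (285 with library totals). Separate TMM factors for heads and bodies gave 56 ratios and a Tal1-202 ratio of 0.21. With the authors' size factors the Tal1-202 head changed by -0.83 (edgeR adjusted p 0.0608). With heads in place of bodies, the difference in the log2 ratio of Tal1-201 to Runx1-202 was 0.034 and to Fli1-202 was 0.64. The cause of these shifts was not tested. Heads of 23 to 150 reads limit what Tal1-201 and Fli1-202 can show.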
